A study of Mus musculus with 12 samples.

Results

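A set of 10 genes of prostaglandin and leukotriene synthesis and signalling were followed in tumour-associated macrophages (TAMs) that had or had not taken up nanoparticles in a mouse glioma. They were chosen by symbol: Ptgs1, Ptgs2, Ptges and Hpgds of the prostaglandin branch, Alox5, Alox5ap, Lta4h and Ltc4s of the leukotriene branch, and the leukotriene receptors Ltb4r1 and Cysltr1. All 10 were among the 54532 genes of the count table and all 10 passed the filter on low counts, as did 15014 genes in total. In rhodamine-positive sorts 4 of the 10 were lower: both receptors, the inducible cyclooxygenase Ptgs2 and the leukotriene B4 synthase Lta4h. Ltc4s, the leukotriene C4 synthase, was higher by a narrow margin, and the other 5 did not pass the test.

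Polyadenylated RNA was sequenced from 12 libraries of 6 glioma-bearing mice, 6 rhodamine-positive and 6 rhodamine-negative, 1 of each from every animal. All mice carried the genotype labelled Ntv-a_Ink4a/Arf_KO, so rhodamine-negative cells came from the same genotype, the same tumours and the same injection as rhodamine-positive cells. As background, Ntv-a mice express the receptor for avian leukosis viruses from the nestin promoter, which lets such viruses infect neural progenitors, and Ink4a and Arf are tumour suppressors of 1 locus. Each mouse had received rhodamine-labelled perfluoro-crown-ether nanoparticles by vein, and its tumour was taken after 24 hours. The sort kept CD45+, CD11b+ and Ly6C- cells and split them by their rhodamine fluorescence, and each sort held over 2000 cells. The gate as described names Ly6C a second time, and whether another marker was meant is not known. Mice 1 to 4 were male and mice 5 and 6 female, and ages are not given in the sources used here. The comparison asks how TAMs that took up particles differ from TAMs of the same tumour that did not.

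Prostaglandins and leukotrienes are short-lived lipid mediators made from arachidonate, which phospholipases release from membranes. Cyclooxygenases turn arachidonate into prostaglandin H2, and terminal synthases turn that into prostaglandin E2, D2 and other prostanoids. 5-lipoxygenase, with its partner FLAP, makes leukotriene A4, which Lta4h hydrolyses to leukotriene B4 and Ltc4s joins to glutathione to give leukotriene C4, the parent of the cysteinyl leukotrienes. Macrophages and microglia make these mediators and also respond to them through receptors coupled to G proteins.

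Libraries held 13073189 to 17379314 counts in rhodamine-positive sorts and 13421387 to 16167832 in rhodamine-negative sorts. Levels are CPM (each library's counts brought to a common total), with totals adjusted by TMM, the trimmed mean of M values. Log2 fold changes set rhodamine-positive over rhodamine-negative sorts and come from edgeR's quasi-likelihood test, in which each mouse is a block. A gene is called where its p-value, adjusted by the Benjamini-Hochberg method over all genes tested, is below 0.05. Among all genes, 1955 of 15014 genes were called higher, which is 13%, and 1986 were called lower, which is 13.2%. Scaled to library size alone the split was 852 higher and 3142 lower, and the median log2 fold change of all genes was -0.18, against -0.02 with TMM. The rhodamine-negative library of mouse 5 stood apart most in its group, with a median Spearman correlation to the others of 0.966, against 0.974 to 0.980 for the rest, and values without mouse 5 are given where they bear on a call. Csf1r, the receptor for macrophage colony-stimulating factor, is a marker of the labelled cell type. It averaged 4064 ± 490 CPM in rhodamine-positive and 3225 ± 855 CPM in rhodamine-negative sorts (SD, n = 6 each). A level in a bulk sort does not show how pure the sort was, and markers of other cells are given below.

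**Figure D1:**
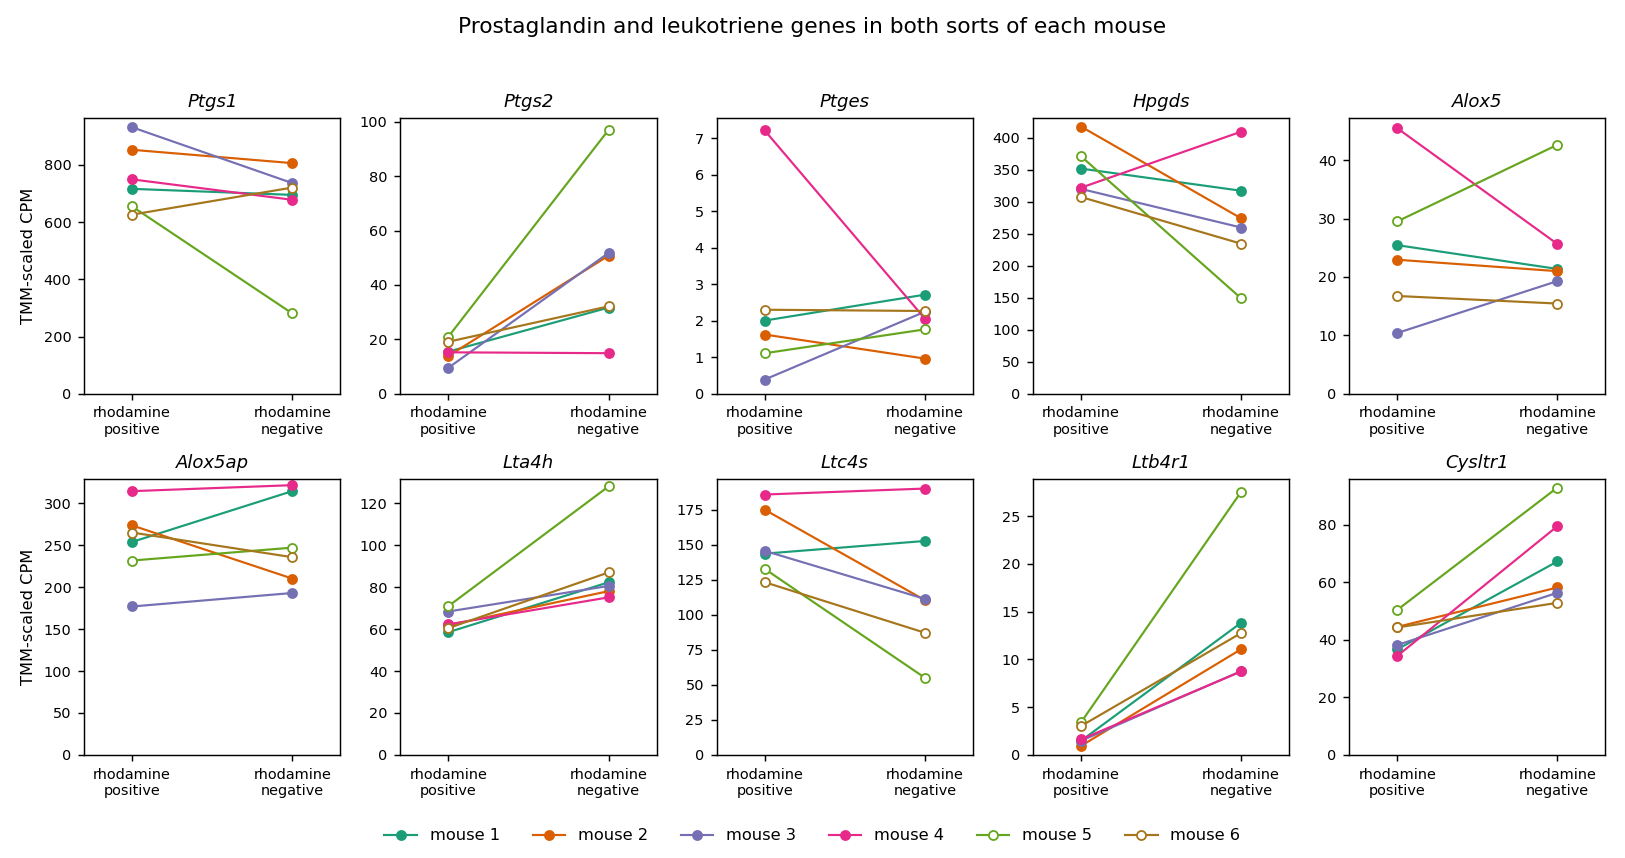
TMM-scaled CPM of each of the 10 genes in the rhodamine-positive (left) and rhodamine-negative (right) sort of every mouse, with 1 line per mouse; filled points are male and open points female mice, and each panel has its own axis from 0. The lines of Ltb4r1, Lta4h and Cysltr1 all run upward toward the rhodamine-negative sort, whereas those of Ptges and Alox5 cross.

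The constitutive cyclooxygenase did not pass the test, whereas the inducible one was 2.62-fold lower in rhodamine-positive sorts. Ptgs1 (ENSMUSG00000047250, chromosome 2:36230426-36252272, plus strand, GRCm38) encodes COX-1, the form most cells keep at a steady level. It had 716, 853, 931, 749, 655 and 626 CPM in the rhodamine-positive sorts of mice 1 to 6, against 695, 806, 736, 678, 280 and 721 CPM in the rhodamine-negative sorts. The groups overlapped, and the rhodamine-negative library of mouse 5 lay far below the other 11. The log2 fold change was 0.27 ± 0.15 (SE, adjusted p = 0.22) over 6 mice and 0.09 (adjusted p = 0.498) without mouse 5.

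Ptgs2 (ENSMUSG00000032487, chromosome 1:150100031-150108227, plus strand) encodes COX-2, the form that cells switch on upon stimulation. It had 15.5, 13.9, 9.55, 15.2, 21.0 and 19.1 CPM in the rhodamine-positive sorts of mice 1 to 6, against 31.7, 50.8, 51.8, 14.9, 97.0 and 32.2 CPM in the rhodamine-negative sorts. It was lower in the rhodamine-positive sort in 5 mice, and mouse 4 had nearly the same level in both, so the groups overlapped through that mouse. Ptgs2 averaged 15.7 ± 4.03 CPM in rhodamine-positive and 46.4 ± 28.4 CPM in rhodamine-negative sorts (SD, n = 6 each), a log2 fold change of -1.39 ± 0.28 (SE, adjusted p = 0.00376). The rhodamine-positive libraries were close together, and most of the spread lay among the rhodamine-negative ones. Without mouse 5 the log2 fold change was -1.20 (adjusted p = 0.00914). Per kilobase of exon, Ptgs1 exceeded Ptgs2 by 36.8 to 115 times in rhodamine-positive libraries (median 56.2) and by 3.41 to 53.6 times in rhodamine-negative libraries (median 22.3).

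Proximal promoters of the 2 cyclooxygenase genes are shown because Ptgs2 was called lower and Ptgs1 was not called, a difference between the 2 genes that was not itself tested. RefSeq promoter sequences (GRCm38.p6, 250 bases before to 50 bases after the annotated start) were found for 8 of the 10 genes. Short motifs were searched on both strands, and matches are in capitals: part of a cyclic AMP response element, TGACGT (present in 7.51% of 32851 RefSeq promoters of that length), an E-box CACGTG (7.15%), a C/EBP core TTGCNNAA (10.8%), a PU.1 and Ets core GGAAGT (23.8%), a GC box GGGCGG (35.7%) and a TATA motif TATAAA (13.6%). The Ptgs2 window, chr1:150099781-150100080 on the plus strand, had a GC box match 170 bases and a C/EBP core match 69 bases before the start. It also had TGACGT on the minus strand from base 13 after the start, which shares 2 bases with an E-box match from base 17. The Ptgs1 window, chr2:36230176-36230475 on the plus strand, had 1 match, the PU.1 and Ets core 22 bases before the start. A match shows only that these letters are present.
Ptgs2: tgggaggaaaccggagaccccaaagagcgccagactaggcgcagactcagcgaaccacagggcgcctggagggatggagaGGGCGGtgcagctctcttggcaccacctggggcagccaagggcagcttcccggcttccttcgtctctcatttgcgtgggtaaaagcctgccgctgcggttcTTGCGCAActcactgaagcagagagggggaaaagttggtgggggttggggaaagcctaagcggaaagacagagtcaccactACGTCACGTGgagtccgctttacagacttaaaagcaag
Ptgs1: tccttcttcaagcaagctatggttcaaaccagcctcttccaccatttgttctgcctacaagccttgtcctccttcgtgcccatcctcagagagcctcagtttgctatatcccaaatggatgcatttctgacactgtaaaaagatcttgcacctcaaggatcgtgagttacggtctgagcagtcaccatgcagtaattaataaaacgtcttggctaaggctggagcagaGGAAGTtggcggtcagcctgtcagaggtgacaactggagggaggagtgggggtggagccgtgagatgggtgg

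Hpgds and Ptges, terminal prostaglandin synthases, did not pass the test. Hpgds (ENSMUSG00000029919, chromosome 6:65117293-65144908, minus strand), the haematopoietic prostaglandin D synthase, had 352, 418, 320, 322, 371 and 308 CPM in the rhodamine-positive sorts of mice 1 to 6. In the rhodamine-negative sorts it had 317, 274, 260, 410, 149 and 234 CPM. It was higher in the rhodamine-positive sort in 5 of 6 mice and lower in mouse 4, and the groups overlapped. The log2 fold change was 0.40 ± 0.16 (SE, adjusted p = 0.0935), with 0.55 (adjusted p = 0.0199) without mouse 4 and 0.23 (adjusted p = 0.196) without mouse 5. DESeq2 called it, at 0.39 with an adjusted p of 0.0325, and so did edgeR with no filter on low counts, at 0.41 with an adjusted p of 0.00137.

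Ptges (ENSMUSG00000050737, chromosome 2:30889471-30929863, minus strand), the inducible microsomal prostaglandin E synthase, had few counts, 389 over all 12 libraries. It had 2.00, 1.62, 0.388, 7.21, 1.11 and 2.30 CPM in the rhodamine-positive sorts of mice 1 to 6, against 2.71, 0.963, 2.25, 2.06, 1.76 and 2.27 CPM in the rhodamine-negative sorts. It was higher in the rhodamine-positive sort in 3 mice and lower in 3, and mouse 4 alone had a raised rhodamine-positive level. The log2 fold change of -0.07 ± 0.46 (SE, adjusted p = 0.933) changed sign under other settings, so no direction is given.

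**Figure D2:**
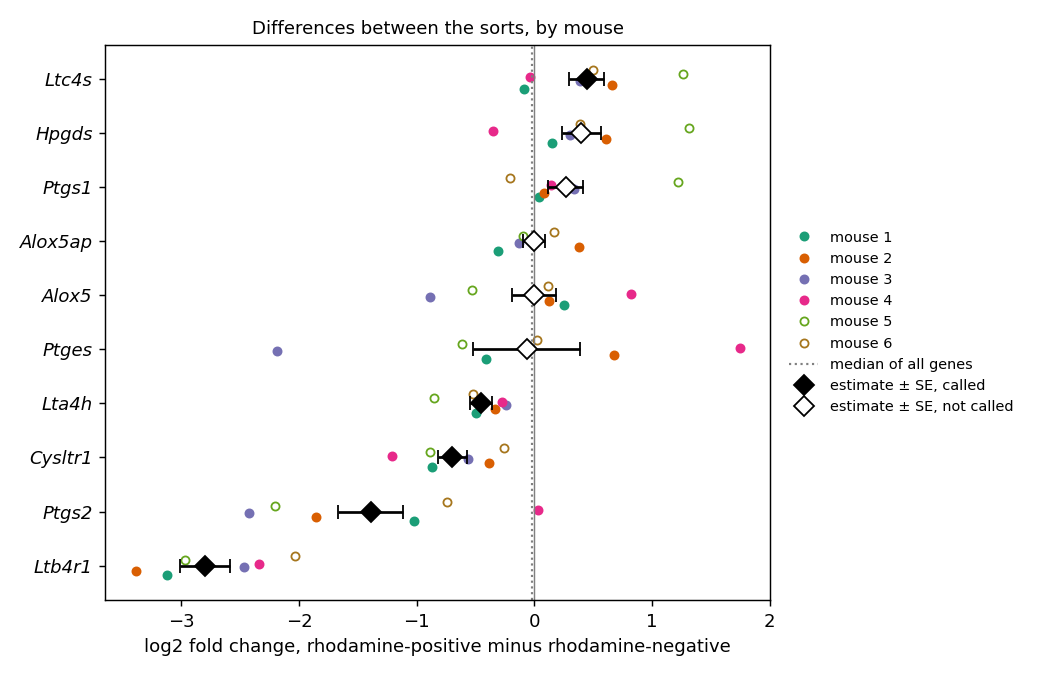
Log2 fold change, rhodamine-positive minus rhodamine-negative, of the 10 genes: small points are the 6 mice (open points female), diamonds the edgeR estimate ± SE, filled where called, and the dotted line the median of all genes tested (-0.02). Ltb4r1 lies farthest left at -2.80, followed by Ptgs2 at -1.39, while Ltc4s is the filled diamond right of 0 at 0.45.

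Neither gene of the first step of the leukotriene branch passed the test. Alox5 (ENSMUSG00000025701, chromosome 6:116410077-116461178, minus strand) encodes 5-lipoxygenase. It had 25.5, 23.0, 10.4, 45.5, 29.5 and 16.7 CPM in the rhodamine-positive sorts of mice 1 to 6, against 21.4, 21.0, 19.3, 25.6, 42.6 and 15.4 CPM in the rhodamine-negative sorts. The ranges overlapped almost wholly, and the high libraries were those of mouse 4 in the rhodamine-positive group and mouse 5 in the rhodamine-negative group. The log2 fold change was -0.01 ± 0.19 (SE, adjusted p = 0.988), and its sign changed with the setting.

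Alox5ap (ENSMUSG00000060063, chromosome 5:149264767-149288153, plus strand) encodes FLAP, which presents arachidonate to 5-lipoxygenase. It had 254, 274, 177, 315, 232 and 265 CPM in the rhodamine-positive sorts of mice 1 to 6, against 315, 210, 193, 322, 247 and 236 CPM in the rhodamine-negative sorts. It averaged 253 ± 46.0 CPM in rhodamine-positive and 254 ± 53.4 CPM in rhodamine-negative sorts (SD, n = 6 each), a difference far smaller than the spread between mice. The adjusted p was 0.993, with an SE of 0.10 on the log2 scale, and the sign of the estimate also changed with the setting. Per kilobase of exon, Alox5ap exceeded Alox5 by a median of 31.7 times in rhodamine-positive libraries (at most 49.2) and 32.6 times in rhodamine-negative libraries (at most 44.1).

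The enzymes at the leukotriene A4 branch point were called in opposite directions. Lta4h (ENSMUSG00000015889, chromosome 10:93453411-93484875, plus strand), the hydrolase that makes leukotriene B4, had 58.5, 61.8, 68.4, 62.3, 71.0 and 60.5 CPM in the rhodamine-positive sorts of mice 1 to 6. In the rhodamine-negative sorts it had 82.3, 78.1, 80.6, 75.1, 128 and 87.0 CPM. All 6 rhodamine-positive libraries lay below all 6 rhodamine-negative ones, and mouse 5 had the highest level in both groups. Lta4h fell by 0.45 on the log2 scale (SE 0.10, adjusted p = 0.00556), and the log2 fold change was -0.36 (adjusted p = 0.0120) without mouse 5.

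Ltc4s (ENSMUSG00000020377, chromosome 11:50236461-50238616, minus strand) had 144, 175, 146, 186, 133 and 123 CPM in the rhodamine-positive sorts of mice 1 to 6, against 153, 110, 111, 190, 55.1 and 87.2 CPM in the rhodamine-negative sorts. It was higher in the rhodamine-positive sort in 4 of 6 mice and close to level in mice 1 and 4, and the groups overlapped. The log2 fold change was 0.45 ± 0.15 (SE, adjusted p = 0.0489). The call was lost without mouse 2, 3, 5 or 6 (adjusted p = 0.121, 0.100, 0.0944 and 0.110), and without mouse 5 the log2 fold change was 0.29. It was also lost when mice were not blocked (0.36, adjusted p = 0.294) and with scaling to library size alone (0.29, adjusted p = 0.164). Per kilobase of exon, Ltc4s exceeded Lta4h by 11.3 to 18.0 times in rhodamine-positive libraries (median 13.8) and by 2.59 to 15.2 times in rhodamine-negative libraries (median 8.42).

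For 3 of the 10 genes, reads in a stretch of exon that overlaps a gene on the opposite strand cannot be assigned to either gene, because the strand setting of the counting is not given in the sources used here. Ltc4s shared 268 exon bases, 26.4% of its exon length, with Gm26542, which had 24530 counts over all libraries, against 23770 for Ltc4s, and a log2 fold change of 0.45 (adjusted p = 0.0513). Alox5ap shared 189 bases (13.3%) with Gm19719, which had 78.8% as many counts and a log2 fold change of -0.03. Ptgs1 shared 148 bases (3.81%) with Gm43621, which had 18.1% as many counts and a log2 fold change of 0.22.

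Both leukotriene receptors were lower in rhodamine-positive sorts in all 6 mice. Ltb4r1 (ENSMUSG00000046908, chromosome 14:55765962-55768494, plus strand) encodes BLT1, the high-affinity leukotriene B4 receptor, which guides leukocytes toward that lipid. It had 1.47, 0.936, 1.47, 1.62, 3.40 and 3.02 CPM in the rhodamine-positive sorts of mice 1 to 6, from 15 to 49 counts per library. In the rhodamine-negative sorts it had 13.8, 11.1, 8.77, 8.74, 27.6 and 12.8 CPM, from 125 to 422 counts. The highest rhodamine-positive library was well below the lowest rhodamine-negative one. Ltb4r1 averaged 1.99 ± 0.981 CPM in rhodamine-positive and 13.8 ± 7.05 CPM in rhodamine-negative sorts (SD, n = 6 each), which is 6.96-fold lower (log2 fold change -2.80 ± 0.22, SE, adjusted p = 7.25e-06). It ranked 81 from the lowest log2 fold change of the 15014 genes tested. Without mouse 5 it was -2.74 (adjusted p = 2.21e-05).

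Cysltr1 (ENSMUSG00000052821, chromosome X:106574346-106603679, minus strand) encodes the type 1 cysteinyl leukotriene receptor, which binds leukotriene D4 best. It had 36.7, 44.5, 38.2, 34.4, 50.4 and 44.3 CPM in the rhodamine-positive sorts of mice 1 to 6, against 67.2, 58.2, 56.4, 79.5, 92.9 and 52.8 CPM in the rhodamine-negative sorts. The groups did not overlap, although the rhodamine-positive sort of mouse 5 came close to the rhodamine-negative sort of mouse 6. Cysltr1 was 1.62-fold lower in rhodamine-positive sorts (log2 fold change -0.70 ± 0.12, SE, adjusted p = 0.00203), and -0.65 (adjusted p = 0.00525) without mouse 5. Per kilobase of exon, Cysltr1 exceeded Ltb4r1 by 3.98 to 12.9 times in rhodamine-positive libraries (median 6.26), and the ratio was 0.914 to 2.47 in rhodamine-negative libraries (median 1.37). In bulk sorts such as these, fewer cells that carry a transcript and less of it per cell cannot be told apart.

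The Ltb4r1 promoter window (chr14:55765712-55766011, plus strand, RefSeq GRCm38.p6) is shown because this gene had the lowest log2 fold change of the 10. The same motif search found the GC box on the minus strand 31 bases before the start and the PU.1 and Ets core on the minus strand from base 1 of the transcript, both in capitals.
Ltb4r1: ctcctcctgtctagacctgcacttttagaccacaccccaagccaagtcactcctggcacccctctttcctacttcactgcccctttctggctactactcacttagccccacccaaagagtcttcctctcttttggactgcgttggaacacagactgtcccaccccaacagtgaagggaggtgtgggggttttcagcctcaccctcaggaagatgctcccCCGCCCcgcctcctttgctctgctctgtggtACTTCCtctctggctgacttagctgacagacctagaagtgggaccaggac

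Of the 10 genes, 4 were called lower and 1 higher, against 13.2% and 13% of all genes tested, and the median log2 fold change was -0.04, against -0.02 over all genes. The 4 lower calls stood in all 16 alternative fits, and also at a threshold of 0.01. For 3 of the 10, Ltb4r1, Lta4h and Cysltr1, all rhodamine-positive libraries lay below all rhodamine-negative ones, as they did for 701 genes (4.67%). None of the 10 had every rhodamine-positive library above every rhodamine-negative one, which was so for 621 genes (4.14%).

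**Figure D3:**
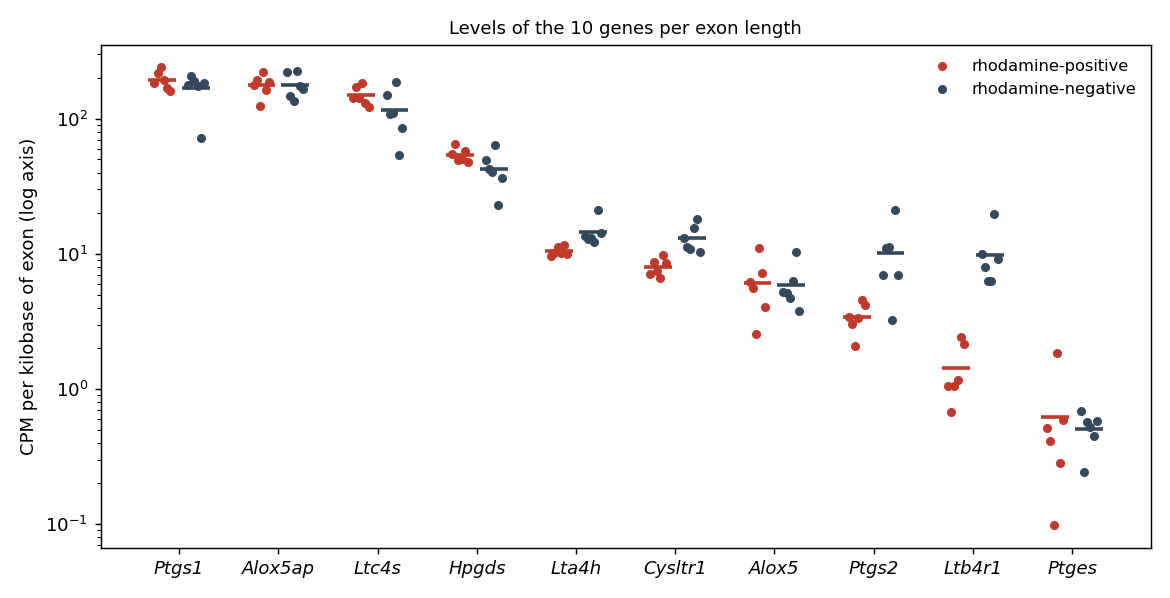
Level per exon length (CPM per kilobase, log axis) of the 10 genes in the 6 rhodamine-positive (left of each pair) and 6 rhodamine-negative (right) libraries, with bars at the group means. Ptgs1, Alox5ap and Ltc4s lie above 50 CPM per kilobase in every library, and Ptges lies lowest by group mean in both sorts.

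By CPM per kilobase of exon, Ptgs1 (mean 194), Alox5ap (178) and Ltc4s (149) led in rhodamine-positive libraries and their ranges overlapped. The length used counts all exon bases annotated for a gene, whichever transcripts were present. It ran from 1014 bases for Ltc4s to 6425 for Hpgds. The order of genes and the ratios between genes given above depend on it. Hpgds followed at 54.2, apart from its neighbours on either side. Lta4h (10.4), Cysltr1 (8.05), Alox5 (6.11), Ptgs2 (3.43), Ltb4r1 (1.42) and Ptges (0.621) came next, and each of these 6 overlapped with the gene next to it in the order. In rhodamine-negative libraries the order was Alox5ap (179), Ptgs1 (168), Ltc4s (116), Hpgds (42.7), Lta4h (14.5), Cysltr1 (13.2), Ptgs2 (10.1), Ltb4r1 (9.89), Alox5 (5.90) and Ptges (0.509). Gaps without overlap lay there between Hpgds and Lta4h and between Alox5 and Ptges. Ptgs2 and Ltb4r1 stood below Alox5 in the rhodamine-positive order and above it in the rhodamine-negative order.

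Around these 10 genes, 7 lists held 66 further genes of the same pathways, of which 42 passed the filter, 13 were called higher and 7 lower (median log2 fold change 0.09), against 13% and 13.2% of all genes tested. The same shares apply to each list that follows. Scaled to library size alone the counts were 7 higher and 10 lower (median -0.07), when mice were not blocked 8 and 4, and without mouse 5 11 and 7. The called enzymes were mixed in direction, and the 3 called receptors, Ptger4, Ptger2 and Gpr17, were lower. Gpr17 passed the filter mainly through the rhodamine-negative libraries, so its direction supports nothing.

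Arachidonate release had 4 genes higher and 1 lower of 11 tested, with a median of 0.20. The higher ones included Pla2g4a (log2 fold change 0.38 ± 0.10, adjusted p = 0.0178), the cytosolic phospholipase A2 that supplies most arachidonate for these pathways, and the lipid hydrolases Daglb (0.46, adjusted p = 0.0154) and Abhd12 (0.54, adjusted p = 0.0215). With library size alone 0 of the 11 were called higher, and Abhd12 was also lost without mouse 1, 2 or 3 (adjusted p = 0.0592, 0.0561 and 0.0578). The lower one was Anxa1, which encodes annexin A1, an inhibitor of phospholipase A2 rather than a lipase. Anxa1 had 16.9, 10.9, 11.0, 20.9, 23.3 and 16.2 CPM in the rhodamine-positive sorts of mice 1 to 6, against 46.9, 48.8, 50.8, 41.9, 122 and 45.6 CPM in the rhodamine-negative sorts. The groups did not overlap (log2 fold change -1.79 ± 0.17, SE, adjusted p = 4.15e-05).

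**Figure D4:**
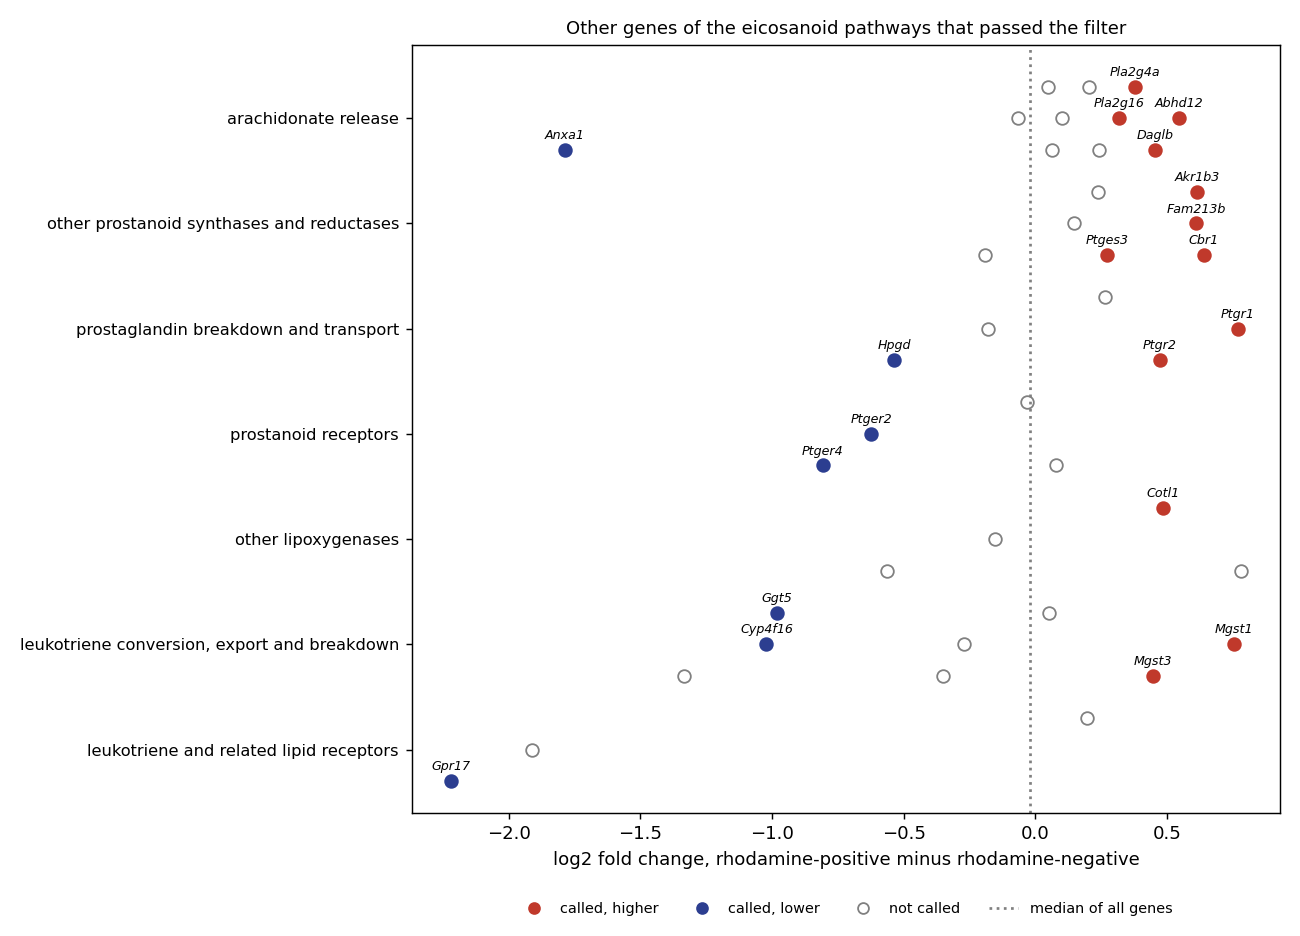
Log2 fold change, rhodamine-positive minus rhodamine-negative, of the 42 further pathway genes that passed the filter, by list; red and blue points are called higher and lower, open points are not called, vertical offsets only separate points, and the dotted line is the median of all genes (-0.02). Anxa1 at -1.79 and Gpr17 at -2.22 lie farthest left among the called genes, and the called prostanoid synthases and reductases all lie right of 0.

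Other prostanoid synthases and reductases had 4 higher and 0 lower of 7 tested (median 0.27). Akr1b3, an aldose reductase that can make prostaglandin F2α, averaged 255 ± 27.8 CPM in rhodamine-positive and 169 ± 32.0 CPM in rhodamine-negative sorts (SD, n = 6 each), with a log2 fold change of 0.62 ± 0.10 (SE, adjusted p = 0.00118). Fam213b, a prostamide and prostaglandin F synthase, was higher by 0.61 (adjusted p = 0.00639), a call lost without the block (adjusted p = 0.0739). Cbr1, a carbonyl reductase of prostaglandins, was higher by 0.64 (adjusted p = 0.00799), which did not hold in male mice alone (adjusted p = 0.0704). Ptges3, the cytosolic prostaglandin E synthase and HSP90 co-chaperone p23, was higher by 0.27 (adjusted p = 0.0237), and it lost the call without mouse 1, 2, 3 or 6 (adjusted p = 0.0502, 0.0642, 0.0858 and 0.0569).

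Of 5 genes of prostaglandin breakdown and transport, 2 were higher and 1 lower (median 0.26). Ptgr1 and Ptgr2, reductases of prostaglandin metabolites of which the first also inactivates leukotriene B4, were higher by 0.77 (adjusted p = 0.00104) and 0.47 (adjusted p = 0.00352). Hpgd, the dehydrogenase that begins prostaglandin breakdown, was lower, with a log2 fold change of -0.54 (adjusted p = 0.0227), and lost the call without mouse 1, 4 or 6 (adjusted p = 0.0729, 0.0639 and 0.0724). Zadh2, a further prostaglandin reductase, was not called (0.26, adjusted p = 0.312).

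Prostanoid receptors had 0 higher and 2 lower of 4 tested (median -0.33). Ptger4, which encodes the EP4 receptor for prostaglandin E2, had 35.9, 66.1, 48.9, 45.9, 49.5 and 42.5 CPM in the rhodamine-positive sorts of mice 1 to 6, against 63.1, 117, 71.2, 70.0, 114 and 76.3 CPM in the rhodamine-negative sorts. It was lower in all 6 mice, and mouse 2 had a high level in both sorts, so that the groups overlapped (log2 fold change -0.81 ± 0.10, SE, adjusted p = 0.000200). Ptger2, the EP2 receptor, was lower by a log2 fold change of -0.62 (adjusted p = 0.0308) and kept its call only without mouse 4 among the fits that left out a mouse (adjusted p = 0.0502 to 0.0976 in the other 5). Ptger1 (0.08, adjusted p = 0.64) and Ptgdr2 (-0.03, adjusted p = 0.924), the EP1 and DP2 receptors, did not pass.

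Among 4 other lipoxygenase genes, Cotl1, a 5-lipoxygenase binding protein and no lipoxygenase itself, was called higher (0.48, adjusted p = 0.00235). Alox12, Alox15 and Aloxe3, the lipoxygenases proper, had 207, 413 and 158 counts over all libraries and were not called. In leukotriene conversion, export and breakdown, 2 were higher and 2 lower of 8 (median -0.31). Mgst1, a microsomal glutathione transferase, was higher by 0.75 (adjusted p = 0.00113), though not without the block (adjusted p = 0.142). Its relative Mgst3 was higher by 0.45 (adjusted p = 0.0424), and the call was lost without mouse 2, 3, 5 or 6 (adjusted p = 0.113, 0.108, 0.101 and 0.118). Ggt5, the γ-glutamyl transferase that turns leukotriene C4 into D4, had a log2 fold change of -0.98 ± 0.17 (SE, adjusted p = 0.00151), and Cyp4f16, a P450 of the family that oxidises leukotriene B4, -1.02 ± 0.14 (SE, adjusted p = 0.000354). Neither overlapped between the groups. The same held for Anxa1, which was lower, and for Akr1b3, Cbr1, Ptgr2 and Cotl1, which were higher. Of all genes tested, 4.67% lay wholly below and 4.14% wholly above in rhodamine-positive libraries.

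Of 3 further lipid receptors that passed the filter, Gpr17, a relative of the cysteinyl leukotriene receptors, was lower (-2.22 ± 0.64, SE, adjusted p = 0.0245) from 343 counts in all. It had 30 to 65 counts in rhodamine-negative libraries and, apart from 66 in mouse 1, 0 to 12 in rhodamine-positive ones. The filter thus left little room for another outcome. Its call was lost without mouse 3, 4 or 6 (adjusted p = 0.0737, 0.0544 and 0.0772), and the rhodamine-positive sort of mouse 1 had 4.41 CPM, above its rhodamine-negative sort. Fpr2, a formyl peptide receptor that binds lipoxin A4 and annexin A1, had a log2 fold change of -1.91 (adjusted p = 0.0567), and Cmklr1, a chemerin and resolvin receptor, 0.20 (adjusted p = 0.124).

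**Figure D5:**
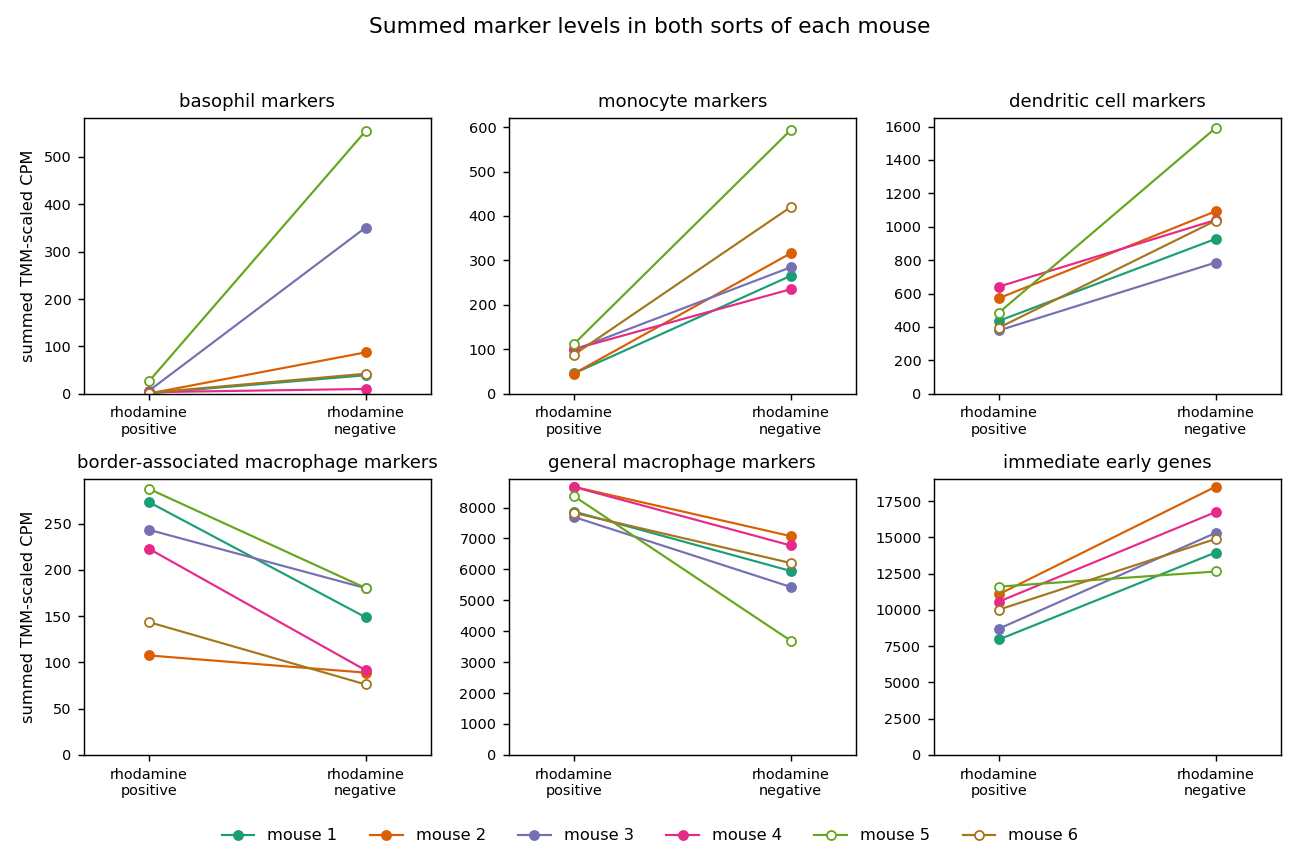
Summed TMM-scaled CPM of 6 marker lists in the rhodamine-positive (left) and rhodamine-negative (right) sort of each mouse, with open points for female mice and a separate axis from 0 in each panel. Basophil, monocyte, dendritic cell and immediate early sums are higher in the rhodamine-negative sort of every mouse, and basophil sums range there between 10.1 and 555 CPM. The dendritic cell sums are mostly Siglech, which was not called, and Ccr7.

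Markers of other leukocytes differed between the sorts together with the lower genes. Basophil markers were lower in 6 of 6 tested (10 listed), with sums of 0.668, 0.499, 6.37, 3.31, 26.4 and 1.98 CPM in the rhodamine-positive sorts of mice 1 to 6, against 39.0, 87.4, 351, 10.1, 555 and 42.2 CPM in the rhodamine-negative sorts. Some of the 6 passed the filter through the rhodamine-negative libraries alone, Mcpt8 with counts in 1 of 6 rhodamine-positive libraries, so the filter left little room for another outcome and the count supports nothing. The rhodamine-negative libraries fell in the same order of mice by this sum as by Ptgs2, with mouse 5 highest and mouse 4 lowest, an order noticed after the values were seen. Monocyte markers were lower in 3 of 6 (sums 45.5 to 112 CPM in rhodamine-positive and 235 to 593 CPM in rhodamine-negative libraries). Dendritic cell markers were lower in 7 of 8 (rhodamine-positive 379 to 642 CPM, rhodamine-negative 785 to 1591 CPM). Of these, Clec9a had 0 to 20 and Xcr1 2 to 26 counts in rhodamine-positive libraries, against 26 to 54 and 16 to 79 in rhodamine-negative ones. Both passed the filter mainly through the rhodamine-negative libraries, so their calls support nothing. T and NK cell markers were lower in the 1 of 6 that could be tested, Klrd1 (sums rhodamine-positive 2.78 to 11.5 CPM, rhodamine-negative 40.6 to 87.2 CPM). Klrd1 made up most of every such sum. Cd3e, Cd3d and Cd2 had 0 to 10 counts per library, Klrb1c 2 to 28 and Nkg7 0 to 51. The gate as stated would remove Ly6C+ monocytes and cells without CD11b, which most T cells are. Ly6c2 had 0 to 87 counts in rhodamine-positive and 23 to 154 counts in rhodamine-negative libraries and was not called (log2 fold change -1.25, adjusted p = 0.0649). The part of these cells in the lower levels of Ltb4r1, Cysltr1, Ptgs2 and Lta4h was not tested.

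Mast cell markers were lower in the 1 tested of 5, Kit (sums 4.11 to 13.1 CPM in rhodamine-positive and 17.6 to 114 CPM in rhodamine-negative libraries), and Tpsb2 was at 0 in all libraries, with Cma1, Tpsab1 and Mcpt4 at 6, 2 and 1 counts in all. Eosinophil markers were lower in the 1 tested of 5, Siglecf (rhodamine-positive 13.1 to 24.5 CPM, rhodamine-negative 21.6 to 46.4 CPM), with Epx at 2 counts in all. Neutrophil markers had 1 higher and 1 lower of 3 tested of 7 (rhodamine-positive 252 to 417 CPM, rhodamine-negative 221 to 390 CPM), and Ly6g had 1 count in all. The lower one was Cxcr2, a chemokine receptor, with 1.24 ± 1.04 CPM in rhodamine-positive and 6.86 ± 6.87 CPM in rhodamine-negative sorts (SD, n = 6 each, log2 fold change -2.42, adjusted p = 0.000492). Cxcr2 had 3 to 40 counts in rhodamine-positive and 19 to 309 counts in rhodamine-negative libraries. It passed the filter mainly through the rhodamine-negative ones, so its call supports nothing. Csf3r, which made up most of the neutrophil sum, was not called (0.15, adjusted p = 0.329). Platelet markers were lower in 1 of 3, Itga2b (rhodamine-positive 4.04 to 7.29 CPM, rhodamine-negative 7.80 to 36.4 CPM), with Gp1bb at 0. Glioma and oligodendrocyte lineage markers were lower in 3 of 6 (rhodamine-positive 47.0 to 112 CPM, rhodamine-negative 79.6 to 118 CPM). Sox10, 1 of these 3, had 4 to 74 counts in rhodamine-positive and 39 to 98 counts in rhodamine-negative libraries, with the same limit as Cxcr2. No B cell marker of 3 tested (rhodamine-positive 21.3 to 40.6 CPM, rhodamine-negative 16.2 to 37.7 CPM) or endothelial marker of 4 (rhodamine-positive 24.1 to 63.4 CPM, rhodamine-negative 16.9 to 61.8 CPM) was called.

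Some macrophage markers were higher in rhodamine-positive sorts, as was Ltc4s. General macrophage markers were higher in 4 of 6 (sums 7694 to 8671 CPM in rhodamine-positive and 3696 to 7076 CPM in rhodamine-negative libraries) and border-associated macrophage markers in 3 of 5 tested (rhodamine-positive 107 to 288 CPM, rhodamine-negative 76.2 to 180 CPM). Of the 4 general markers, Adgre1 and Cd68 kept their calls in all 16 alternative fits. Csf1r and Aif1 lost theirs in 9 and 7 of the 16, library size alone and male mice alone among them. Among microglia markers, Tmem119 (log2 fold change 0.27, adjusted p = 0.192), Cx3cr1 (0.19, adjusted p = 0.381) and Sparc (0.19, adjusted p = 0.453) were not called. The lowest general macrophage sum was that of the rhodamine-negative library of mouse 5, which also had the lowest Ptgs1, Hpgds and Ltc4s. Immediate early genes, which cells switch on quickly upon stimulation, were lower in 8 of 10 with a median of -0.68 (rhodamine-positive 7958 to 11602 CPM, rhodamine-negative 12644 to 18488 CPM). TMM factors were also apart, at 0.923 to 0.980 in rhodamine-positive and 1.02 to 1.15 in rhodamine-negative libraries (exact two-sided sign-flip test over 6 mice, p = 0.03125, the smallest it can give). The part of these in the results was not tested.

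By the pattern of log2 CPM over the 12 libraries, the genes most like Ltb4r1 were Klrk1 (Pearson r = 0.983), which encodes the lymphocyte receptor NKG2D, S100a6 (0.982), a calcium-binding protein, and Gm12854 (0.977). Their log2 fold changes were -2.47, -2.48 and -1.82. Those most like Ltc4s were its antisense partner Gm26542 (0.995), then the C-type lectin Cd302 (0.967) and Tmem50a (0.965). These correlations carry the difference between the sorts and any other difference between libraries that remains after TMM scaling.

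The difference between sorts was compared between the 2 female and 4 male mice by an interaction term. It was called for 0 of the 10 genes and for 0 of 15014 genes (0%) by edgeR, with 1160 genes at an unadjusted p under 0.05. Hpgds had a female minus male difference in log2 fold change of 0.67 (adjusted p = 0.64 by edgeR) and Ltc4s 0.65 (adjusted p = 0.624). In both, mouse 5 had the highest pair difference, 1.32 for Hpgds and 1.27 for Ltc4s. A missed threshold does not show that the sexes were alike.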

How the data were processed

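The authors deposited raw read counts per gene for 12 libraries (a table and 1 file per library, which held identical counts) and a table of log2 normalized values for 10605 genes, including 9 of the 10 genes described here. Its log2 values equalled log2 CPM of the deposited counts plus a constant per library, between -0.107 and 0.175. The submitters' processing notes name build mm10 and the tools HISAT2 2.1.0, featureCounts 1.4.4, bcl2fastq 2.17, limma, edgeR and cutadapt; their roles and parameters are not given in the sources used here.

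Genes were filtered with filterByExpr of edgeR 4.0.16 in R 4.3.3 (minimum count 10, minimum total 15), which left 15014 of 54532 genes with 99.8% of counts. Library sizes were scaled by TMM, and the quasi-likelihood test (glmQLFit, glmQLFTest) had the mouse as a block, with Benjamini-Hochberg adjustment over all genes tested. The SE is the size of the log2 fold change over √F. Log2 CPM used a prior count of 2. The procedure was tested on simulated data. Other fits used DESeq2 1.42.0, limma 3.58.1 and the settings of the closing section.

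The series' design text says that both sorts came from each animal. Deviations from the group means correlated within mice 1 to 6 with r = 0.226, 0.207, 0.289, 0.0775, 0.302 and 0.450 over genes, against at most 0.148 to 0.187 for the other sort of any other mouse, so mouse 4 did not stand out as a pair. No library was a copy of another (lowest chi-square per degree of freedom 17.5 in rhodamine-negative and 20.8 in rhodamine-positive sorts).

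The genes and lists were chosen with earlier results of these data known. All 10 genes are named, with up to 4 of each pathway list by smallest p, all prostanoid receptors tested, and marker genes by most counts. The markers at or near 0, those given as the 1 gene tested or called, Ly6c2, Clec9a, Xcr1 and Sox10 were named after their values were seen. Coordinates and exon lengths are from GENCODE vM21 (GRCm38, the assembly of mm10). An exon length counts each exon base of any annotated transcript of the gene 1 time. P-values of fits with the mouse as a block measure the spread of the difference between sorts over these 6 mice. All libraries carry the same batch label. The microglia list is reported only in part here.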

Additional observations from a re-analysis of the deposited data

Results flagged for a closer look

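Among 141 groups of 6 values, 21 held a library or mouse far from the other 5 by Dixon's test, which chance gives in about 1 group in 20; most were the rhodamine-negative library of mouse 5. No cause was tested. Of the 10 genes, that library had a low Ptgs1 level of 280 CPM, against 678 to 806 CPM in the other 5 rhodamine-negative libraries. It had high levels of Alox5 (42.6 CPM, against 15.4 to 25.6 CPM), Lta4h (128 CPM, against 75.1 to 87.0 CPM) and Ltb4r1 (27.6 CPM, against 8.74 to 13.8 CPM). Ptges stood out in the rhodamine-positive library of mouse 4, at 7.21 CPM, against 0.388 to 2.30 CPM in the other 5.

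Among other pathway genes, the rhodamine-negative library of mouse 5 was high for Anxa1 (122 CPM, against 41.9 to 50.8 CPM), Alox15 (4.90 CPM, against 1.93 to 2.95 CPM), Cyp4f16 (81.4 CPM, against 28.2 to 44.1 CPM) and Ggt5 (45.6 CPM, against 22.0 to 30.3 CPM), and low for Akr1b3 (109.8 CPM, against 162 to 193 CPM). The pair log2 difference of mouse 5 was 1.14 for Daglb, against 0.13 to 0.46 in the other mice, and 1.11 for Akr1b3, against 0.40 to 0.66. In mouse 4 the pair log2 difference of Aloxe3 was -3.46, against -0.02 to 0.63. Its rhodamine-positive library had 26.3 CPM of Mgst3, against 34.5 to 38.4 CPM, and 1.84 CPM of Fpr2, against 0 to 0.668 CPM. Gpr17 had 4.41 CPM in the rhodamine-positive library of mouse 1, against 0 to 0.831 CPM.

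Among marker sums, basophil markers had 26.4 CPM in the rhodamine-positive library of mouse 5, against 0.499 to 6.37 CPM in the other 5. The rhodamine-negative library of mouse 5 had 114 CPM of mast cell markers, against 17.6 to 42.2 CPM, 36.4 CPM of platelet markers, against 7.80 to 18.0 CPM, and 87.2 CPM of T and NK cell markers, against 40.6 to 53.5 CPM. Klrd1 alone gave 82.8 CPM of that T and NK sum. Endothelial markers had 63.4 CPM in the rhodamine-positive library of mouse 4, against 24.1 to 32.9 CPM.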

How the results depend on the processing

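The number of the 10 genes called lower was 4 under every setting tried. The number called higher, 1, was 0 with no replicate block, library size alone, RLE or upper quartile scaling, limma on the deposited log2 table, male mice alone or a threshold of 0.01, was 2 with DESeq2 or no filter, and ranged from 0 to 2 on leaving out a mouse; Ltc4s and Hpgds made up these changes. Over all genes, the 1955 higher became 1270 with no replicate block, 852 with library size alone, 1240 on the log2 table, 1005 in male mice, 908 at 0.01 and 1257 to 1780 on leaving out a mouse. The 1986 lower became 3142 with library size alone, 1222 in male mice and 1033 at 0.01. The sign of the log2 fold change turned for 3 genes that were never called. Ptges was 0.28 with no replicate block, 0.27 with limma-voom, 0.056 in male mice and -0.48 to 0.31 on leaving out a mouse. Alox5 was 0.051, 0.034 and 0.099 in these fits, 0.0052 with no filter and -0.18 to 0.16 on leaving out a mouse. Alox5ap was 0.0088 with no filter and -0.079 to 0.061 on leaving out a mouse. The cause was not tested. Ptges had 389 counts in all.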
